A study of Mus musculus with 6 samples.

Results

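SOX1+ cells of the embryonic trunk were compared with whole embryos of the same stage, on 4 of the 6 arrays of the series. The arrays were chosen by their labels alone: 2 carried SOX1+ cells from separate sorts and 2 carried whole embryo. Both groups came from embryos at 9.5 dpc, of Sox1-Cre/Floxed-YFP genotype, C57BL6/CBA hybrid background and mixed gender. In these embryos the Cre recombinase made under Sox1 control switches on YFP for good, so the sorted cells include the descendants of a cell that once expressed Sox1. The SOX1+ cells were sorted by FACS from the dissected dorsal trunk, the head having been discarded, whereas the whole-embryo RNA included the head and every other tissue. The remaining 2 arrays carried SOX10+ cells, sorted from the trunk of Sox10-IRES-Venus embryos of C57BL6/129Sv hybrid background at the same stage, and are shown beside the results where useful. Their RNA had been combined, so they count as 1 sample.

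SOX1 is a transcription factor of the SOXB1 family and among the earliest markers of the neural plate and neural tube, where it is made in dividing progenitors. A whole embryo at this stage also holds blood, somites, heart, gut endoderm, vessels and surface ectoderm. A transcript that is abundant in any of these tissues and scarce in neural tube would differ between the samples without any change within a cell, and in bulk RNA fewer cells of a type and less RNA per cell cannot be told apart.

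Each array paired the Cy3-labeled sample with the Cy5-labeled reference RNA common to all arrays, and the values below are log2 ratios of Cy3 over Cy5. The reference was a commercial mouse RNA pool mixed with RNA of embryonic stem cells, and the dyes were not swapped, so a dye effect common to all arrays cancels only between groups. On the whole-embryo arrays the Cy3 signal stood well above background for 66.6% and 64.2% of the probes. On the SOX1+ arrays it did so for 60.2% and 62.6%. The whole-embryo arrays lay on slide 1 and the SOX1+ arrays on slide 2, so that slide and group cannot be told apart. The labels do not say whether the 2 whole-embryo samples came from separate embryos, and the p-values then measure only the spread between these samples. The probes of this array were given by sequence with no gene names, and the tables used here could not name most of them. Lists of neural, mesodermal and other marker genes, and the check of the SOX1+ label against its markers, were not analysed here. The genes below were reached through the probe sequences instead.

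Some probes were readable in this way. One kind encodes a stretch of the homeodomain, the DNA-binding part of many patterning factors, and the capitals mark the codons of its recognition helix signature.
Z00027746-1: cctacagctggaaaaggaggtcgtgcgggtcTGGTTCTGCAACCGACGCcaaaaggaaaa
Z00025470-1: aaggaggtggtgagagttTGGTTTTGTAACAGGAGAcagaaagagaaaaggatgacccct
Z00026180-1: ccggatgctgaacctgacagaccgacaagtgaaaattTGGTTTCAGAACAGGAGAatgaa

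Another encodes haemoglobin chains, the oxygen carriers of red blood cells, and the capitals mark the codons of a conserved globin stretch.
Z00047077-1: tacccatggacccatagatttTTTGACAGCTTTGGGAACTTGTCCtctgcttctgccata
Z00073991-1: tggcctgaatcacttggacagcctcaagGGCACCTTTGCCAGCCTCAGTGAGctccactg
Z00035213-1: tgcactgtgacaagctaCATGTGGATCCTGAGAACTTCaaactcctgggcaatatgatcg

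A further kind could be placed on the genome, and those probes are given with their positions beside their values.

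More probes were lower in SOX1+ cells than higher. Of 26766 probes tested, 528 (1.97%) were higher in the SOX1+ cells and 1680 (6.28%) were lower, 8.25% in either direction (limma, Benjamini-Hochberg adjusted p under 0.05 and more than 2-fold). Median centring, used instead of loess, gave 226 higher and 2651 lower probes and shifted the middle of the whole distribution from 0.05 to -0.22 on the log2 scale. The higher probes made up 23.9% of the calls with loess and 7.86% with median centring, so the surplus of lower probes is relative to the normalization. The lower probes also lay farther from equality. The median log2 fold change was 1.28 for the higher probes and -1.62 for the lower ones, with a median standard error of 0.149 in each set. More than 4-fold differences were found for 48 higher and 575 lower probes, and more than 16-fold differences for 1 higher and 78 lower probes.

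**Figure D1:**
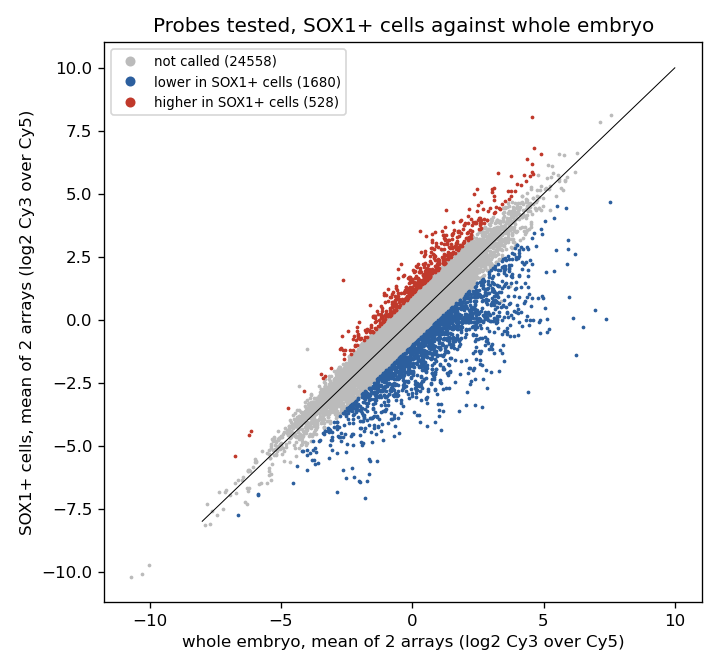
Mean log2 ratio of Cy3 over Cy5 in whole embryos (horizontal) and in SOX1+ cells (vertical) for each of the 26766 probes tested; each axis is the mean of 2 arrays and the line marks equal values. The 1680 lower probes spread much farther from the line than the 528 higher ones.

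**Figure D2:**
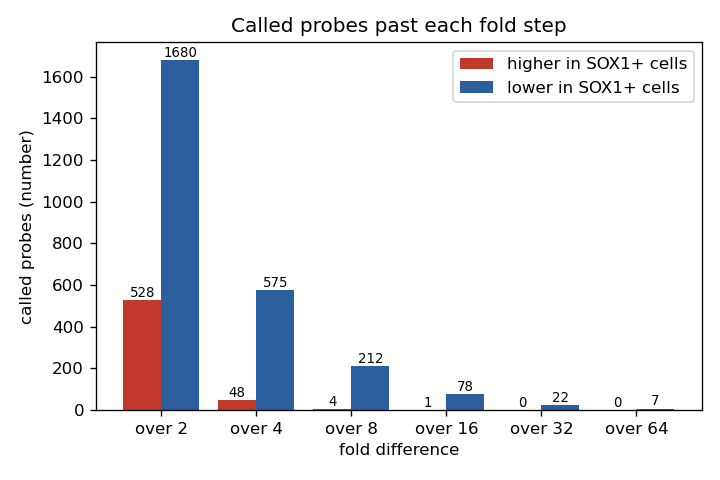
Number of called probes past each fold step, from 2-fold to 64-fold, higher (red) or lower (blue) in SOX1+ cells. Past 8-fold the counts were 4 higher and 212 lower.

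The higher and lower sets differed in how many probes had a measured level on both sides. Of the 1680 lower probes, 1253 were still well above background on both SOX1+ arrays, 132 on 1 of them and 295 on neither. Of the 528 higher probes, 507 were well above background on both whole-embryo arrays and 6 on neither. Of all 26766 tested probes, 23743 were well above background on all 4 arrays. The whole-embryo arrays had more probes above background than the SOX1+ arrays, and the part of this in the counts was not tested. Where 1 group had no array well above background, the fold is given as a lower bound in normalized Cy3 signal, which is open to dye bias without dye swaps. On the dim side it takes, for each array, the higher of the lowest signal well above background and the reading of the probe itself. In 273 of the 295 lower and in all 6 higher probes the reading of the probe itself set it on both arrays, so that the bound there equals the measured Cy3 difference. Among the 295 lower probes 283 came to 2-fold or more, with a median of 3.61. The 3 largest were at least 243-fold, 184-fold and 182-fold, for Z00073991-1, Z00006468-1 and Z00046139-1. The reference reading differed by -2.82, -0.74 and -4.91 in the same log2 units, and their log2 fold changes in the ratio were -5.10, -6.79 and -2.59. In raw Cy3 signal the whole-embryo arrays read 16500 and 67200 units for Z00073991-1 and 12900 and 39500 for Z00046139-1. For Z00006468-1 they read 27500 and 18500. The raw reference there was 389 and 1080, 1130 and 3590, and 198 and 186, in this order. No spread is given for the bounds, though the whole-embryo arrays lay far apart for Z00073991-1 and Z00046139-1. The 3 largest of the 6 higher probes were at least 3.49-fold, 2.95-fold and 2.77-fold.

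The probes lower in SOX1+ cells had a median log2 ratio of 0.794 and 0.819 on the whole-embryo arrays and of -0.973 and -1.07 on the SOX1+ arrays. On the SOX10+ arrays, on the same slide as the SOX1+ arrays, their median was -0.333 and -0.37. The higher probes had a median of 1.68 and 1.79 in SOX1+ cells, 0.465 and 0.356 in whole embryos, and 0.465 on both SOX10+ arrays. Both sets were chosen by their SOX1+ values, so nothing is read from where the SOX10+ medians lie. The SOX10+ cells differ in strain and reporter as well as in cell type, and these cannot be told apart.

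The largest rise in the ratio among probes measured on all 4 arrays was that of Z00009597-1, whose first 30 bases are gccagcttaacatttgtaataggcagagat. Its log2 ratio was -2.71 and -2.58 in whole embryos and 1.60 and 1.58 in SOX1+ cells, and 0.89 on both SOX10+ arrays. Both sorted populations stood above the whole embryos, with no overlap. The log2 fold change was 4.24 ± 0.11 (SE, limma adjusted p = 2.55e-05). In raw Cy3 signal it was 283 and 267 intensity units in whole embryos and 3210 and 4880 in SOX1+ cells, while the reference read between 1460 and 1510 on these arrays.

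The second, Z00044310-1, begins with tatgcagaaaggatgtcatctggaatcttg. The arrays read a log2 ratio of 4.5 and 4.6 in whole embryos, 8.08 and 8.0 in SOX1+ cells, and 6.95 on both SOX10+ arrays. Again the sorted cells were above the whole embryos, those of SOX1+ cells highest. This gave a log2 fold change of 3.49 ± 0.11 (SE, limma adjusted p = 2.83e-05). It was 1.42 with the software-processed signals (limma adjusted p = 0.0346) and 1.42 in the authors' table, and 4.65 with the Cy3 channel alone, where it exceeded the 4.48 of Z00009597-1. The reference passed the background flag on 2 of the 4 arrays, with 65.7 and 64 intensity units on the whole-embryo arrays and 117 and 164 on the SOX1+ arrays. In raw Cy3 signal the whole embryos read 2130 and 1950 units and the SOX1+ cells 24100 and 49500. The 2 SOX1+ arrays thus lay much farther apart in raw Cy3 than in the ratio, and the standard error measures only the ratio.

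The largest fall was that of Z00022892-1, which begins with taagcatttgcccggttacttagtgaaact. On the log2 scale its ratio was 6.47 and 6.02 in whole embryos and -1.26 and -1.53 in SOX1+ cells, against 1.06 and 1.09 on the SOX10+ arrays. The log2 fold change was -7.64 ± 0.18 (SE, limma adjusted p = 2.55e-05). The raw Cy3 signal was 54800 and 35600 units in whole embryos and 127 and 143 in SOX1+ cells, with a reference between 378 and 409. The signal was strong in whole embryos and low in SOX1+ cells, where both arrays still passed the background flag.

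Z00025949-1, beginning with aaaccattcttcaggtataaagagaattac, had log2 ratios of 4.71 and 4.14 in whole embryos, -2.23 and -3.51 in SOX1+ cells and 1.46 and 1.48 on the SOX10+ arrays. The SOX1+ arrays differed from each other by more than 2-fold here, and both lay far below the other groups. This gave a log2 fold change of -7.29 ± 0.41 (SE, limma adjusted p = 0.000122). Over the 10 leading probes in each direction the log2 fold changes ran from 2.63 to 4.24 upward and from -7.64 to -5.29 downward.

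**Figure D3:**
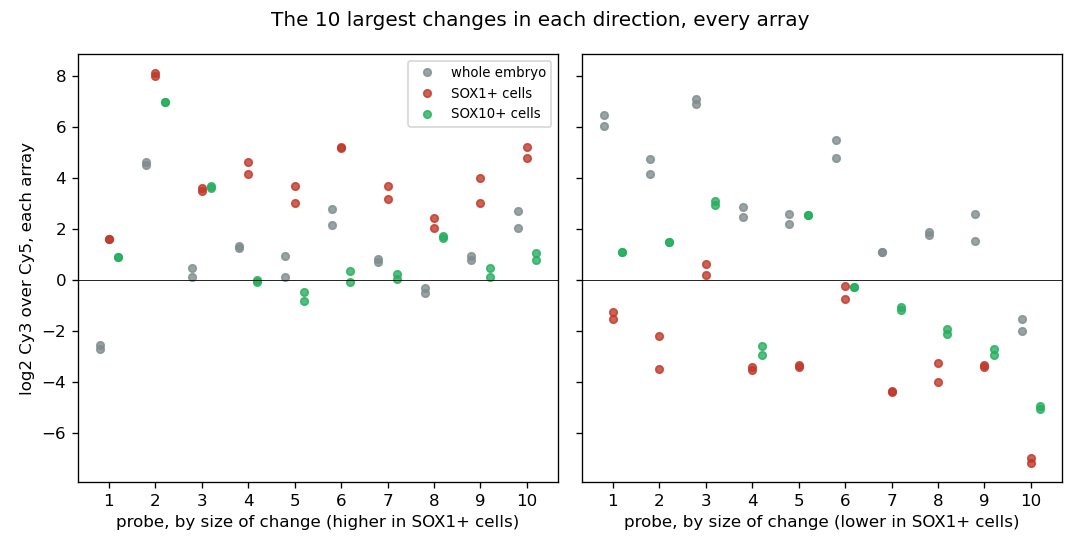
Log2 ratio of Cy3 over Cy5 on every array for the 10 probes with the largest rise (left) and the largest fall (right) in SOX1+ cells, ordered by size of change; each point is 1 array. The whole-embryo and SOX1+ points do not overlap for any of the 20 probes, which their choice fixes and which held for 68.3% of all tested probes, and the SOX10+ points lie at different places from probe to probe.

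Haemoglobin transcripts were among the most depleted. The globin stretches searched occurred in 3 tested probes, all printed above, with log2 fold changes of -6.57, -5.10 and -4.11, all called lower. The stretches were widened after globin sequence had been seen among the most depleted probes, so that the count of 3 of 3 follows in part from that choice and says nothing about globin probes in general. Z00047077-1 ranked 3 among the falls of probes measured on all 4 arrays. Its log2 ratio was 6.88 and 7.06 in whole embryos, 0.62 and 0.18 in SOX1+ cells and 2.92 and 3.09 on the SOX10+ arrays. The adjusted p was 2.55e-05 (standard error 0.17, limma). In raw Cy3 signal the whole embryos read 108000 and 206000 units, the SOX1+ cells 140 and 131, and the SOX10+ cells 719 and 760. Red blood cells circulate in the embryo at this stage, and their globin signal moved with the group. The part of blood RNA in the other differences was not tested.

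Z00073991-1 was well above background on neither SOX1+ array. The arrays read a log2 ratio of 4.96 and 5.32 in whole embryos and 0.12 and -0.04 in SOX1+ cells (SE of the change 0.15, limma adjusted p = 2.55e-05). Its log2 fold change of -5.10 and its bound of 243-fold in Cy3 are those given above, and the standard error measures only the ratio. Z00035213-1 had log2 ratios of 4.78 and 5.16 in whole embryos, 1.67 and 0.04 in SOX1+ cells and 4.65 and 4.49 on the SOX10+ arrays (SE of the change 0.48, limma adjusted p = 0.00194). Recomputed from the software-processed signals, its log2 fold change was -2.93 and missed the threshold (limma adjusted p = 0.146), as it did in the authors' table.

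For these globin probes the ratio understates the change in the sample channel, because the reference reading changed with it. The Cy5 signal of Z00035213-1 was 3820 and 2970 units on the whole-embryo arrays, where Cy3 read 206000 and 185000. It was 76.6 and 73.3 on the SOX1+ arrays, where Cy3 read 238 and 109, and 235 and 231 on the SOX10+ arrays of that same slide, where Cy3 read 3970 and 4010. The reference RNA was the same throughout, and Cy5 rose with Cy3 also within the slide. The cause was not tested.

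The reference channel otherwise moved little. Over all tested probes its absolute difference between the SOX1+ and the whole-embryo arrays had, in log2 units, a median of 0.0712 against 0.285 for Cy3. It exceeded 2-fold for 100 of 26766 probes. Of these 100, 51 were called lower and 12 higher, whereas 6.28% of all tested probes were called lower and 1.97% higher. Large reference differences were thus more frequent among called probes than among all tested, and the cause was not tested. The normalized Cy3 signal differed by more than 2-fold, in the direction of the call, for 1594 of the 1680 lower and 492 of the 528 higher probes.

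**Figure D4:**
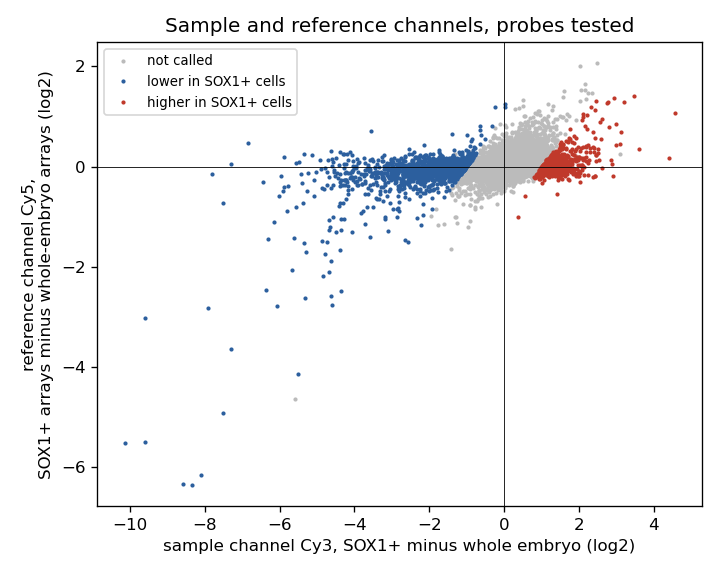
Difference between SOX1+ and whole-embryo arrays in the sample channel Cy3 (horizontal) and in the reference channel Cy5 (vertical), both log2 after normalization, for each tested probe. Most points lie near 0 in Cy5, and 51 of the probes called lower had a Cy5 difference of more than 2-fold.

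The homeodomain probes went both ways. The signature occurred in 5 tested probes and in no probe read in antisense, and 2 were higher and 1 lower, where 8.25% of all tested probes were called (1.97% higher and 6.28% lower). With 5 probes nothing is read from the share. Both higher probes carried the form with a cysteine in the recognition helix that marks POU factors, a class that includes regulators of neural progenitors. Z00027746-1 had log2 ratios of 0.91 and 0.11 in whole embryos, 3.67 and 3.00 in SOX1+ cells and -0.83 and -0.50 on the SOX10+ arrays. The SOX1+ arrays were the highest and the SOX10+ arrays the lowest, and the log2 fold change over whole embryos was 2.82 ± 0.31 (SE, limma adjusted p = 0.00156).

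Z00025470-1, the other POU-type probe, had log2 ratios of 2.75 and 1.77 in whole embryos, 3.84 and 3.66 in SOX1+ cells and 0.96 and 0.50 on the SOX10+ arrays. Its log2 fold change was 1.48 ± 0.30 (SE, limma adjusted p = 0.0149). Without whole embryo replicate 2 it was 0.99, under the 2-fold threshold, and its call was also lost with both analyses of variance, with other background corrections and with median centring, with adjusted p up to 0.134.

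The probe that fell, Z00026180-1, carried the form of the helix found in Antennapedia-type factors such as the HOX proteins, which pattern the body axis in many tissues. On the log2 scale its ratio was 1.43 and 1.42 in whole embryos, -1.57 and -2.59 in SOX1+ cells and -2.30 and -2.12 on the SOX10+ arrays. Both trunk populations lay far below the whole embryos, and the log2 fold change was -3.50 ± 0.31 (SE, limma adjusted p = 0.000614). Of the SOX1+ arrays, 1 read it well above background in Cy3. The other 2 homeodomain probes had log2 fold changes of 0.12 and 0.46 and were not called. The second of them was called higher with the software-processed signals.

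No zinc finger probe was called. The linker that joins C2H2 fingers, the DNA-binding units of the largest family of mammalian transcription factors, occurred in 10 tested probes. Their log2 fold changes lay between -0.28 and 0.43 with a median of -0.03, and limma called 0 of them, with 2 at an unadjusted p under 0.05 and 0 by either analysis of variance. The remaining 21 signatures, among them those of cadherins, collagens and EGF-like repeats, matched 19 tested probes with log2 fold changes from -0.92 to 0.65. Limma called 0 of these, and 12 had an unadjusted p under 0.05. Of the 24 signatures searched, 12 matched no tested probe, among them those of SOX, T-box and Wnt proteins, so these families were not examined. Over all tested probes 8.25% were called and 40.4% had an unadjusted p under 0.05, and with this few probes in each kind nothing particular to them is read from the counts. All of these signatures were chosen with results of these data known, so the counts are a description. They reach few genes, and open frames were nearly as common on the wrong strand: 22163 of the 26766 tested probes had a sense frame without a stop, and 21589 had one in antisense.

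Some probes could be placed on the genome, because at least 30 of their bases matched RefSeq windows around gene starts (GRCm38.p6, from 250 bases before to 50 after). Of 42006 probe sequences 431 matched, 398 of them with 1 gene, and 234 of these were tested. Of these, 2 were higher and 5 lower in SOX1+ cells, 2.99% against 8.25% of all probes. The matched probes lay in the sense of the gene start for 134 and in antisense for 100. On the strand of a gene that spans them were 164 probes, of which 1 was higher and 3 lower. Whether a position is exonic was not analysed here.

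The strongest of them lay in Plet1, which encodes a surface glycoprotein of placental and epithelial progenitors. Z00038074-1, beginning with ctactagcagatttccactgtgcccagacc, matched chr9:50505002-50505055 on the plus strand over 54 bases. The position is inside Plet1, 584 bases from its 3′ end and on its strand, and upstream of the start of Plet1os in antisense. Its log2 ratio was 1.71 and 1.14 in whole embryos, -1.74 and -2.32 in SOX1+ cells and -1.41 and -1.19 on the SOX10+ arrays. The log2 fold change was -3.45 ± 0.25 (SE, limma adjusted p = 0.000305). Neither SOX1+ array was well above background, and the fall in Cy3 was at least 9.32-fold. With the software-processed signals the log2 fold change was -5.92.

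A second lower probe lay in Bcl11a, a zinc finger repressor known for silencing fetal globin genes and also made in neurons. Z00023694-1, beginning with ttgtgatgttttctgacagtagcctccaag, matched chr11:24172868-24172927 on the plus strand, 631 bases from the 3′ end of Bcl11a and on its strand. The arrays read a log2 ratio of -0.14 and -0.07 in whole embryos, -1.23 and -1.05 in SOX1+ cells and -1.13 and -1.29 on the SOX10+ arrays. This gave a log2 fold change of -1.04 ± 0.12 (SE, limma adjusted p = 0.0019), at the edge of the threshold, and it was -0.95 without SOX1+ replicate 1 and -0.89 with the Cy3 channel alone.

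Z00056482-1 rose. It begins with cgttaaataaaactacagggcttccagcca and matched chr9:108578848-108578907 on the minus strand, across the 3′ end of P4htm, which encodes a transmembrane prolyl hydroxylase. The same position is upstream of the start of the neighbouring Wdr6. On the log2 scale its ratio was 1.45 and 1.01 in whole embryos, 2.24 and 2.26 in SOX1+ cells and 1.01 and 0.72 on the SOX10+ arrays. The log2 fold change was 1.02 ± 0.16 (SE, limma adjusted p = 0.00637), and without whole embryo replicate 2 it was 0.80, under the threshold, as it was with median centring at 0.52.

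Z00058995-1 rose as well. It begins with aggatgtagaccacctagtgaagagtccca, and 34 of its bases matched chr7:144899905-144899938 on the plus strand. The position is inside Fgf15, which encodes a secreted fibroblast growth factor made in the embryonic nervous system; the strand of Fgf15 was not given, and the probe is antisense to the start of Gm26793. Its log2 ratio was -1.11 and -1.26 in whole embryos, 0.04 and 0.45 in SOX1+ cells and -0.98 and -1.33 on the SOX10+ arrays. The SOX1+ arrays stood above both other groups, and the log2 fold change was 1.43 ± 0.16 (SE, limma adjusted p = 0.0018). Only 1 of the whole-embryo arrays passed the background flag, and the value was 3.28 with the software-processed signals and in the authors' table.

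The other 3 called probes of this kind were lower. Z00029486-1, beginning with gcaaaaagaatccaatccatttcaaacttg, lay at chr13:70655908-70655967 in antisense to the non-coding Gm36377, with a log2 fold change of -2.50 ± 0.15 (SE, limma adjusted p = 0.000146). Neither the SOX1+ arrays nor the reference passed the background flag there, the fall in Cy3 was at least 6.48-fold, and the log2 fold change was -6.18 with the software-processed signals and in the authors' table. Z00060898-1, beginning with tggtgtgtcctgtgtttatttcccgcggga, crossed the start of Gm52042 at chr13:25007677-25007736, inside the span of Mrs2, a mitochondrial magnesium channel gene, and its log2 fold change was -1.40 ± 0.12 (SE, limma adjusted p = 0.000597). Z00065020-1, beginning with gagcgctgtagcctcctacgcccaccttcc, lay at chr9:96364627-96364681 before the start of Atp1b3, a subunit gene of the sodium pump, and its log2 fold change was -1.33 ± 0.26 (SE, limma adjusted p = 0.0138). Without whole embryo replicate 2 the last was -0.90, and its call was also lost with both analyses of variance and with the processed signals.

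Of the genes in the marker and pathway lists, Acta2 and Pax7 had a placed probe on their own strand, and Fgf15 and Hoxb2 had one while their strand was not given. Acta2, smooth muscle actin, had a log2 fold change of 0.15 ± 0.11 (SE, limma adjusted p = 0.357) at a probe near its start. Pax7, a factor of the dorsal neural tube and of muscle precursors, had 0.14 ± 0.15 (SE, limma adjusted p = 0.546). The Hoxb2 probe, Z00070363-1, had 0.17 ± 0.12 (SE, limma adjusted p = 0.323). None of these 3 was called. The Pax7 probe lies at the start of the gene, far from its 3′ end, and is antisense to Gm46873.

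Overlapping probes gave a second reading of a shared stretch of sequence by a separate spot. Whether both partners lie in the same transcript was not checked. In 652 pairs of tested probes, made up of 1233 probes, the end of one repeats at least 18 bases at the start of the other, and in 14 pairs the sequences are identical. The median gap between partners was 0.06 (log2), and 0.154 in the 91 pairs with a call. Both partners were called in the same direction in 76 pairs, 55 lower and 21 higher. In the other 15 only 1 was called, and the difference of the partner, not called, had the same sign in each. No pair was called in opposite directions at the 2-fold threshold, whereas 1 was at the 1.5-fold threshold. Some probes belong to several pairs, so the pairs are not independent of each other. Partners share RNA, arrays and sequence, so they test the spot and not the sample.

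The pair with the largest shared loss was Z00076581-1 and Z00034757-1, which share the stretch acatggtgaagatgtccat. Their log2 fold changes were -5.78 and -5.59. Z00055332-1 and Z00038597-1, which share ggtgattctagcagatgctcattcagtc, fell by 4.51 and 4.65 on the log2 scale. Their SOX10+ arrays read close to the SOX1+ arrays, whereas in the first pair the SOX10+ log2 ratios of 2.54 and 2.53 for Z00076581-1 lay beside those of whole embryos. Among the pairs that rose, Z00075199-1 and Z00057869-1 share ttcctagtagagcttctagtcttgct and had log2 fold changes of 2.72 and 1.49, so partners can differ in size by more than 2-fold. That was so in 7 of the 91 pairs.

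**Figure D5:**
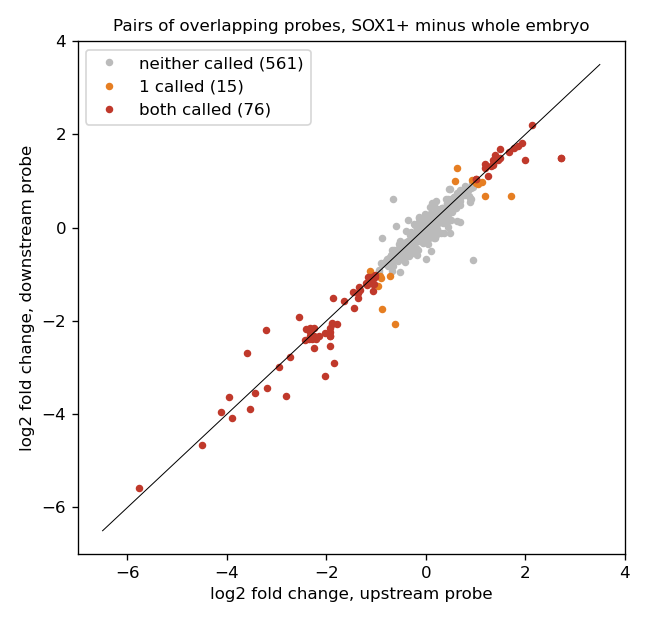
Log2 fold change of SOX1+ cells over whole embryos for the 2 partners of each of 652 overlapping probe pairs, the upstream probe on the horizontal axis and the downstream probe on the vertical axis; the line marks equal values. The 76 pairs in which both were called lie in the lower left and upper right.

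The called probes differed somewhat from the rest in brightness and base content. Split into 3 equal classes by Cy3 signal, 3.4% of the middle class were higher and 9.7% lower, against 0.684% and 4.02% of the dimmest class and 1.84% and 5.11% of the brightest. The median GC content was 43.3% for both higher and lower probes and 45% for all tested. The polyadenylation hexamer AATAAA, searched on the sense strand only, occurred in 11.9% of higher and 12.7% of lower probes and in 7.93% of all tested. Of 5 equal classes by GC content, the lowest had 7.68% of probes called lower and 2.09% called higher, and the highest had 3.89% and 1.33%. Their part in the results was not tested.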

How the data were processed

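Two-color arrays with probes of 60 bases were used. The intensities that the authors deposited are spot means and local background medians per channel from Agilent Feature Extraction 9.5.1.1, not normalized; its processed signals and the authors' table of log10 values (25030 rows, matched by feature number) served as alternatives. Differences between groups in that table followed those of the processed log ratios with a correlation of 1, which gives its scale and direction. Its column medians ran from 2.24 to 2.3.

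Background was corrected with normexp (offset 50), log2 ratios were normalized by loess without control spots, 44 outlier spots of 42034 were left out and spots were averaged, giving 41968 probes. For the bounds and channel differences, Cy3 and Cy5 were taken from the loess ratios after Aquantile scaling of the mean intensities between arrays. The alternative with the Cy3 channel alone instead quantile-normalized Cy3 without the ratio, so its values differ slightly from these. Probes well above background on both arrays of a group were tested with limma 3.58.1 in R 4.3.3 (2 residual degrees of freedom), adjusted by the Benjamini-Hochberg method with calls made past 2-fold where the adjusted p was under 0.05. On simulated data of this comparison (26766 probes, 200 changed by 2 on the log2 scale), 155 were recovered with 3 false calls. The simulation drew normal noise around a common mean for each probe, with no slide difference. Its false calls therefore do not measure those of these data. Sequences were searched with Python 3.11.15 and Biopython 1.88.

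By the naming rule, gene lists needed gene names and were not run; without names, it takes the 10 probes with the largest change in each direction among those called, measured on all 4 arrays and not overlapping, of which 2 a direction are given by ID, and the largest lower bounds. Probes with a protein signature, a genome position or an overlapping partner were added after values had been seen, and the globin signature was widened after depleted probes had been read. The members, lists and tests were chosen with earlier results of these data known. Alternatives covered background, normalization, reference, filter, samples, error model, threshold and arrays left out. Both analyses of variance took the 2 SOX10+ arrays as separate samples, so the spread between these arrays of combined RNA entered their error.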

Additional observations from a re-analysis of the deposited data

Results flagged for a closer look

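The 2 leading probes in each direction that are given by ID above differed between the sorted populations. Their change against whole embryos was not the same in SOX1+ as in SOX10+ cells, and as both changes share the whole-embryo arrays, the test is that of SOX1+ against SOX10+ cells (limma, with the SOX10+ arrays as 1 sample). It uses again the SOX1+ arrays that chose these probes, so the choice favours its direction and its p-values are not independent evidence. Of all 20 leading probes, 15 passed an adjusted p of 0.05 in it and 5 did not, the latter with differences from -0.69 to 0.53 on the log2 scale. The share of all probes that passed it is not given here, so nothing is read from this count. Z00009597-1 was higher in SOX1+ cells by 0.703 on the log2 scale (adjusted p = 0.0208) and Z00044310-1 by 1.09 (adjusted p = 0.00457). Z00022892-1 differed by -2.48 (adjusted p = 0.00145) and Z00025949-1 by -4.34 (adjusted p = 0.0031). Cell type, strain and reporter line cannot be told apart here.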

How the results depend on the processing

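The counts of 528 higher and 1680 lower probes moved most with the threshold and the scaling. They were 136 and 868 past 3-fold, 1824 and 3001 past 1.5-fold, and 226 and 2651 with median centring. The processed signals gave 1004 higher probes, and the Cy3 channel alone 842. The higher probes made up 13.5% of calls past 3-fold and 37.8% past 1.5-fold. The cause of these moves was not tested. Leaving out 1 array at a time gave from 464 to 623 higher and from 1680 to 1754 lower probes. The other alternatives kept both counts within 1.5 times, and no probe was called in opposite directions under any. The authors' table held 16766 of the tested probes and gave 666 and 1764. Restricted to probes whose reference was well above background on all 4 arrays, a choice made after seeing the data, the counts were 449 and 1436. With at least 30 shared bases in place of 18, also chosen after seeing the data, 62 pairs in place of 76 had both partners called in the same direction.

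The deviations of whole-embryo and SOX1+ samples with equal replicate numbers correlated at -0.00034, which gave no sign of pairing between these groups. The SOX10+ arrays were not part of this check. With the replicate block over 6 separate arrays, 530 probes were higher and 1687 lower.

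The alternatives on gene names and on the probe that stands for a gene were not run, since they need gene names. With 2 arrays a group and whole embryos on a slide of their own, slide and group cannot be told apart, and the variation between embryos is not measured. The 295 lower probes not above background in SOX1+ cells were called by their log2 ratios. Their fold in Cy3 is given as a bound, which for 273 of them equals the measured difference.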
